A study of Cicer arietinum with 24 samples.

Results

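CaMET1 (Ca_18432), CaCMT1 (Ca_20580), CaCMT2 (Ca_17866) and CaCMT3 (Ca_23587) are the maintenance DNA methyltransferase and the chromomethylase genes of chickpea (Cicer arietinum) as named by the study. They were picked by identifier, 4 of the 28269 gene identifiers in the tables, and they stood on 5 of 27966 entries because CaCMT1 was listed on 2. Transcript abundance had been measured by RNA-seq in whole seeds at 7 stages, S1 to S7, and in leaves collected during mid maturation of the seeds. All samples came from field-grown plants of the cultivar JGK3, a large-seeded line, without any treatment. The labels give 3 biological replicates per group and name the seed stages by number only. The study describes S1, S2 and S3 as early, mid and late embryogenesis, S5 as mid maturation and S7 as late maturation, and S4 and S6 lie between these.

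Plants methylate cytosine in the CG, CHG and CHH contexts, where H is any base but G. MET1 copies CG methylation onto the new strand after DNA replication, while chromomethylases bind methylated histone H3 and act at non-CG sites, CMT3 mainly in CHG and CMT2 mainly in CHH in heterochromatin. CMT1 is the least understood member of the family, and its gene is disrupted in many Arabidopsis accessions. These roles were worked out mainly in Arabidopsis and are background here. The DRM methyltransferases, which are guided by small RNAs, and the demethylases, which remove methylated cytosine, act beside them. RNA of a whole seed mixes embryo, seed coat and, before S5, endosperm, which the study describes as completely resorbed by then. The mix of tissues thus differs between stages, and fewer cells of a kind and less RNA per cell cannot be told apart.

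Each group was represented by 1 FPKM value per entry, sequenced fragments scaled by exon length and by library size, made from its 3 samples together. No spread between replicates, test or p-value could therefore be had, and the depth of each library was unknown. The differences below describe the pooled libraries, and the order of neighbouring stages could not be checked against an error. A change was counted when log2(FPKM + 1) differed at least 2-fold, among entries with at least 1 FPKM in either group, and "rose" and "fell" are used for such changes only. This scale understates the change of genes with low values. The share of all such entries that passed the same limit is given beside the first count of each comparison. The summed FPKM differed between groups, and it was 787865 at S2 and 2379437 at S7. Entries carried no gene names, so no tissue marker could be checked against the labels.

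The 4 genes were highest at S1 and low at the last stages, CaCMT1 by the higher of its 2 entries, but by different routes. CaMET1, CaCMT2 and CaCMT3 came down over several steps between S1 and S6. CaCMT1 stayed between 14.8 and 23.2 FPKM from S1 to S5 and dropped in a single step, to 0.833 FPKM at S6. CaCMT3 had the highest value of the 4 genes at S1 (41.6 FPKM), and its S6 value (0.0126 FPKM) was the lowest.

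CaMET1 had 11.8 FPKM at S1, 5.98 at S2, 6.01 at S3, 3.21 at S4, 1.77 at S5, 0.309 at S6 and 0.571 at S7, beside 1.34 FPKM in leaf. The values at S2 and S3 were nearly equal, and the 2 last stages were the only seed stages below leaf. The highest seed value was 38.1-fold the lowest. CaMET1 was thus the least abundant of the 4 genes at S1, S2 and S3, and the second most abundant from S5 on.

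CaCMT3 had 41.6 FPKM at S1, 13.9 at S2, 13.5 at S3, 6.33 at S4, 1.64 at S5, 0.0126 at S6 and 0.0554 at S7, beside 0.308 FPKM in leaf. Only S6 and S7 lay below leaf. This gene had the widest range of the 4 over the seed stages, 5.40 in log2(FPKM + 1), which was wider than that of 94.0% of the 18740 entries that reached 1 FPKM in any seed library. The ratio of its highest to its lowest FPKM was 3307, but it rests on an S6 value near 0 whose precision is unknown.

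CaCMT2 had 23.4 FPKM at S1, 8.56 at S2, 7.32 at S3, 2.26 at S4, 1.02 at S5, 0.0653 at S6 and 0.0484 at S7, beside 1.17 FPKM in leaf. It was the only one of the 4 whose value was lower at each of the 6 single steps, although the last difference was only -0.02 in log2(FPKM + 1). S5 already lay below leaf (above it, with 1.14 against 1.09 FPKM, when libraries were scaled to the same upper quartile). Its range of 4.54 was wider than that of 90.0% of entries.

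CaCMT1 had 23.2 FPKM at S1, 14.8 at S2, 19.5 at S3, 21.1 at S4, 18.9 at S5, 0.833 at S6 and 1.03 at S7, beside 1.72 FPKM in leaf on its higher entry. The first 5 stages lay within 1.57-fold of each other and all of them far above leaf. Its range of 3.72 was wider than that of 83.2% of entries, and that of CaMET1 (3.29) was wider than that of 77.6%.

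**Figure D1:**
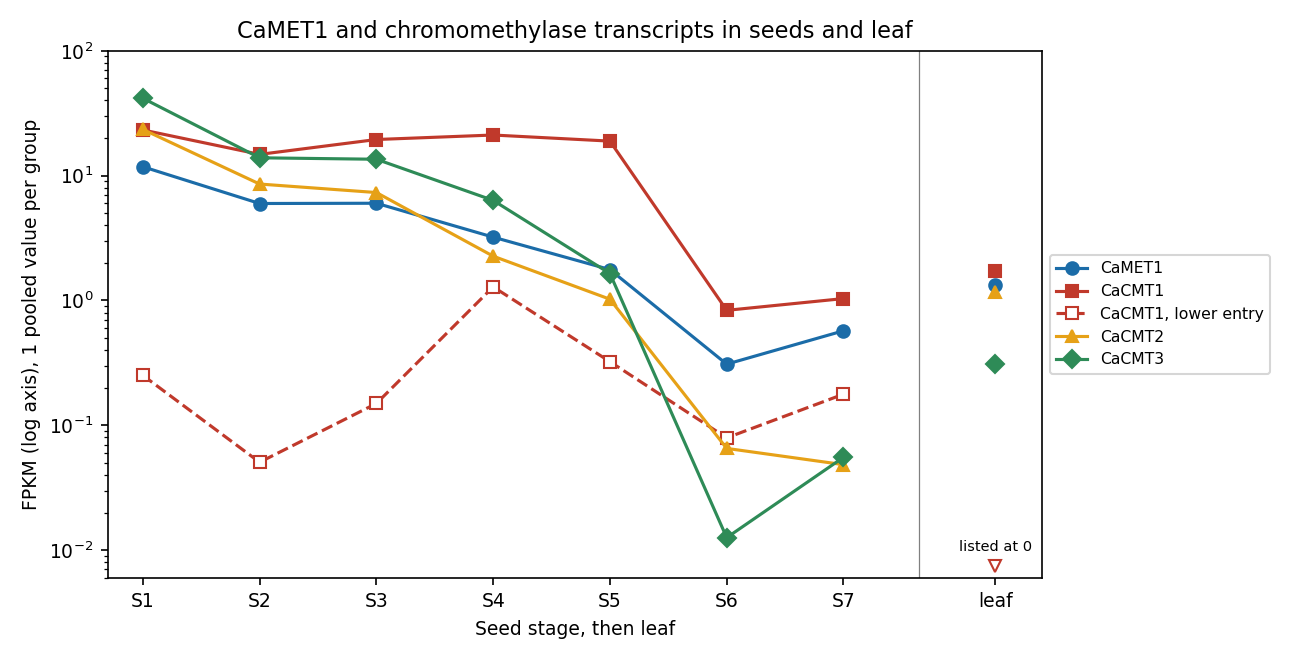
FPKM (log axis) of CaMET1, CaCMT1, CaCMT2 and CaCMT3 at seed stages S1 to S7 and in leaf, 1 pooled value per group and no error bars. CaCMT1 keeps between 14.8 and 23.2 FPKM up to S5 while the other 3 genes come down to between 1.02 and 1.77 FPKM; the dashed line is the lower CaCMT1 entry, which peaks at S4 (1.28 FPKM) and is listed at 0 in leaf (triangle at the bottom).

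The further CaCMT1 entry was much lower, with 0.251 FPKM at S1, 0.0506 at S2, 0.150 at S3, 1.28 at S4, 0.323 at S5, 0.0793 at S6 and 0.178 at S7. It was listed at 0 in leaf, so no fold change against leaf is given. S4 was its highest stage and its only one above 1 FPKM, and among the 5 stages that the study followed for methylation (S1, S2, S3, S5 and S7) S5 was its highest. Which of the entries the study used for CaCMT1 is not given in the sources used here. The difference of 0.99 between S4 and S3 was just under the limit. Among entries whose identifier stands on several entries, 25.9% of 1735 were at least 2-fold higher at S4 than at S3, against 7.02% of 13955 entries whose identifier stands on 1 entry. At least 2-fold higher at S4 than at S5 were 9.52% of the repeated and 11.0% of the other entries, and higher than at both S3 and S5 were 2.19% and 1.19%. The part of this in the S4 value of the entry was not tested. The profile of CaCMT1 below refers to the higher entry, and with the sum of both CaCMT1 entries the same of the 4 genes were past the limit in each comparison.

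The deposited values may have been scaled between libraries, and the rank of a gene within its own library does not depend on that. CaCMT3 at S1 was above 86.7% of all gene entries, above 69.1% at S3, 45.6% at S5 and 30.7% at S6, where 29.6% of entries were listed at 0. CaCMT2 was above 78.3% of entries at S1 and 35.2% at S7. CaCMT1 kept its rank, above 78.1% at S1, 69.9% at S2, 76.6% at S4 and 74.4% at S5, and then above only 47.7% at S6. CaMET1 changed rank least, with 66.4% of entries below it at S1 and 42.3% at S6.

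**Figure D2:**
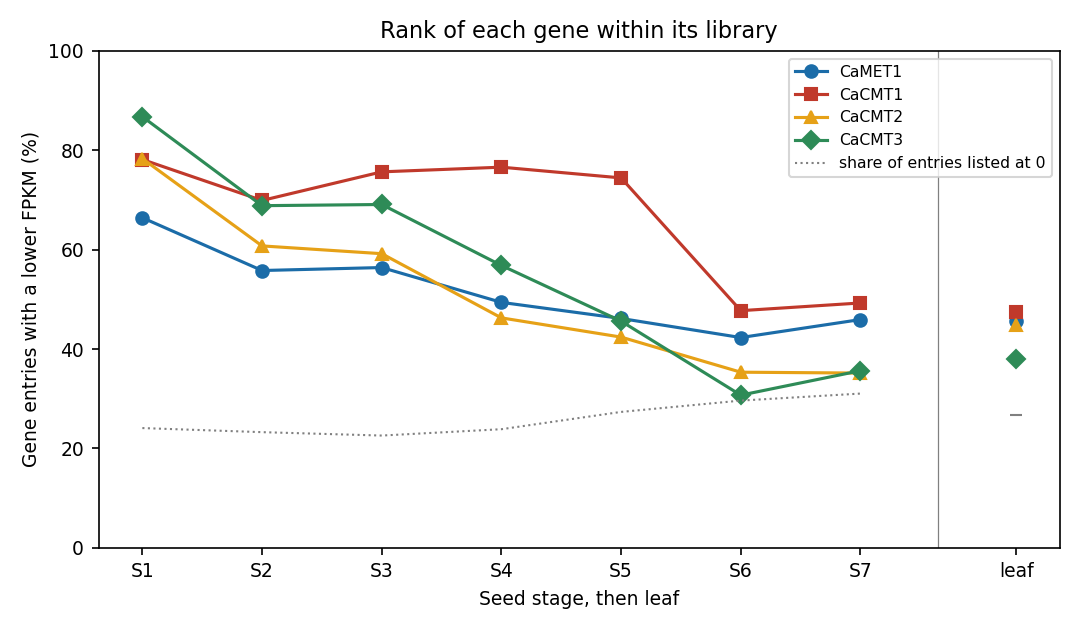
Share of the 27966 gene entries (%) with a lower FPKM than each gene in the same library, for seed stages S1 to S7 and leaf. The dotted line (a dash for leaf) is the share of entries listed at 0, which CaCMT3 nearly reaches at S6 (30.7% against 29.6%).

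In the first step, S2 against S1, all 4 genes were lower at S2, and CaCMT3 and CaCMT2 fell. CaCMT3 had 13.9 FPKM at S2 against 41.6 at S1, a 3.00-fold lower level and a difference of -1.52 in log2(FPKM + 1). CaCMT2 had 8.56 FPKM at S2 against 23.4 at S1 (-1.35). Of all entries 5.79% fell and 8.57% rose by this limit, and only 1.52% had a lower difference than CaCMT3 and 2.31% a lower one than CaCMT2. CaMET1 differed by -0.87 and CaCMT1 by -0.62, which were within the limit.

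Between S3 and S2 none of the 4 genes passed the limit (0 lower and 0 higher), against 7.13% of all entries lower and 4.47% higher at S3. CaMET1 and CaCMT3 were level, with differences of 0.01 and -0.04. CaCMT1 differed by 0.37 and CaCMT2 by -0.20. The sign of the differences of CaMET1 and CaCMT3 in this step depended on how the libraries were scaled.

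The step S4 against S3, which lies outside the 5 stages that the study followed for methylation, separated CaCMT1 from the other genes. CaCMT2 fell to 2.26 FPKM at S4, against 7.32 at S3, a difference of -1.35, where 6.87% of all entries fell and 8.81% rose. CaCMT3 had 6.33 FPKM at S4 against 13.5 at S3. Its difference of -0.99 was just within the limit and passed it with libraries scaled to the same sum (-1.04) or by their median ratio (-1.01). CaMET1 differed by -0.73, while CaCMT1 was slightly higher at S4 (0.11).

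In S5 against S4, CaCMT3 fell to 1.64 FPKM at S5, against 6.33 at S4, a 3.86-fold lower level and a difference of -1.47. It was the only one of the 4 genes past the limit, as were 10.5% of all entries in this direction and 8.71% in the other. CaCMT2 differed by -0.69, and by -1.03 with libraries scaled to the same sum, where the median of all entries was itself at -0.41. CaMET1 differed by -0.61 and CaCMT1 by -0.15.

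The step S6 against S5 was the one at which CaCMT1 fell. It had 0.833 FPKM at S6 against 18.9 at S5, a 22.7-fold lower level and a difference of -3.44, and 5.62% of all entries had a lower one. CaCMT3 fell by 1.38 on the log2 scale, to 0.0126 FPKM at S6 against 1.64 at S5, and CaMET1 fell by 1.08, to 0.309 FPKM at S6 against 1.77 at S5. CaCMT2 had 0.0653 FPKM at S6 against 1.02 at S5, but at such low values the difference (-0.93) stayed within the limit. It passed the limit with 0.1 added to the FPKM in place of 1 (-2.76). With libraries scaled to the same upper quartile it passed too (-1.03), where the median of all entries was itself at -0.56. In FPKM itself CaCMT3 was 130-fold and CaCMT2 15.7-fold lower at S6, ratios that rest on S6 values near 0. In this step 30.3% of all entries fell and 26.1% rose, so that a fall alone was common here. The limit was also tried with a minimum of 5 FPKM, or with 5 added to the FPKM in place of 1 (a pseudocount of 5). CaCMT1 alone of the 4 genes then passed it. The other 3 genes could not pass under either setting, because they had at most 1.77 FPKM at S5, so these settings do not set CaCMT1 apart.

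Between S7 and S6 no gene passed the limit (0 of 4), and CaCMT1 alone had at least 1 FPKM at either stage, with 1.03 FPKM at S7 against 0.833 at S6. Of all entries 3.58% fell and 1.53% rose. CaMET1 was higher at S7 than at S6 (0.571 against 0.309 FPKM), and CaCMT3 was also higher (0.0554 against 0.0126 FPKM), at levels too low for this comparison.

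Over the whole course, S7 against S1, all 4 genes fell, as did 32.6% of all entries, while 29.2% rose. The differences were -5.34 for CaCMT3, -4.54 for CaCMT2, -3.57 for CaCMT1 and -3.02 for CaMET1, and the median of all entries was 0.00. Only 2.12% of entries had a lower difference than CaCMT3, and 10.0% a lower one than CaMET1. The step S6 against S5 held 96.3% of the whole difference of CaCMT1, but 35.7% of that of CaMET1, 25.9% of that of CaCMT3 and 20.4% of that of CaCMT2. These shares depended on the pseudocount. With 0.1 in place of 1 they were 99.7% for CaCMT1, 52.9% for CaMET1, 49.0% for CaCMT3 and 37.8% for CaCMT2, and with 5 they were 91.4%, 22.0%, 12.7% and 10.0% in the same order.

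**Figure D3:**
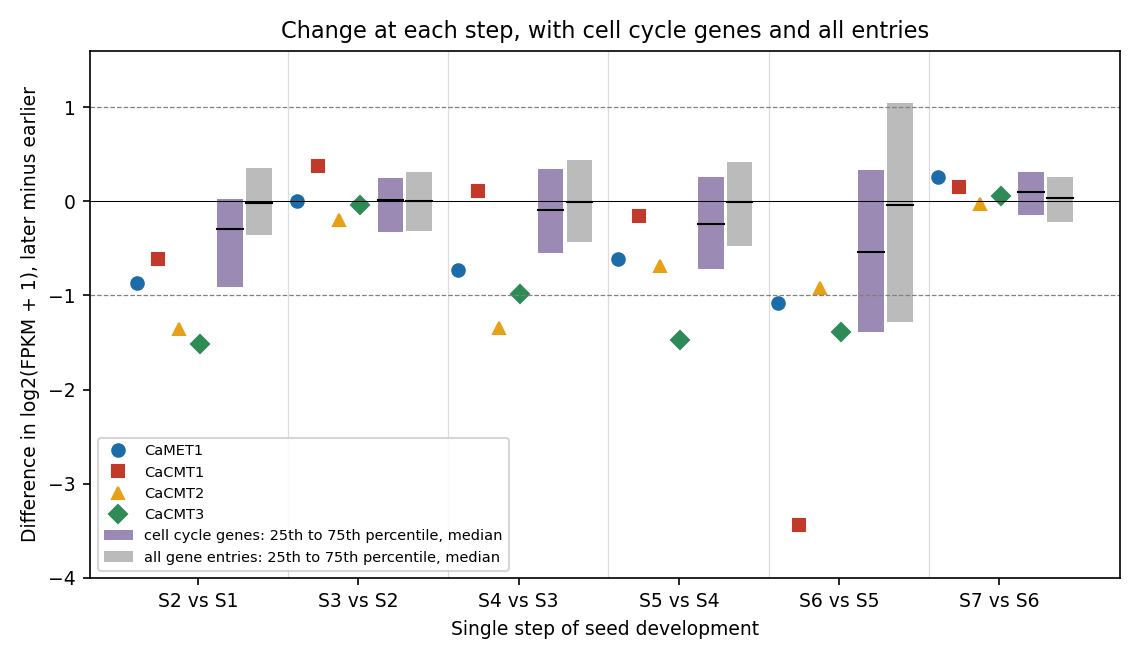
Difference in log2(FPKM + 1), later minus earlier stage, at the 6 single steps for the 4 genes (symbols), for cell cycle genes of the study and for all gene entries (bars from the 25th to the 75th percentile, line at the median). Dashed lines mark the 2-fold limit; CaCMT1 stays within it at each step but S6 against S5 (-3.44).

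FPKM is given per length of exon, so levels can also be set against each other between genes of the same library, and this does not depend on how libraries were scaled. At S1 CaCMT3 made up 41.6% of the summed FPKM of the 4 genes, CaCMT2 23.4%, CaCMT1 23.2% and CaMET1 11.8%. At S5 CaCMT1 made up 81.0%, CaMET1 7.58%, CaCMT3 7.04% and CaCMT2 4.39%. The sum itself was 100.1 FPKM at S1, 43.2 at S2, 46.3 at S3, 32.9 at S4, 23.3 at S5, 1.22 at S6 and 1.71 at S7, beside 4.53 FPKM in leaf.

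The ratios between the genes shifted with the stage. CaCMT3 had 3.54-fold the FPKM of CaMET1 at S1, 2.25-fold at S3, 1.97-fold at S4, 0.930-fold at S5 and 0.0408-fold at S6. CaCMT1 had 0.557-fold the FPKM of CaCMT3 at S1, 1.07-fold at S2, 3.34-fold at S4 and 11.5-fold at S5. CaCMT3 and CaCMT2 stayed closer to each other up to S5, with CaCMT3 between 1.61-fold and 2.80-fold the FPKM of CaCMT2. In leaf the order was CaCMT1, CaMET1, CaCMT2 and CaCMT3, the same as at S6.

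**Figure D4:**
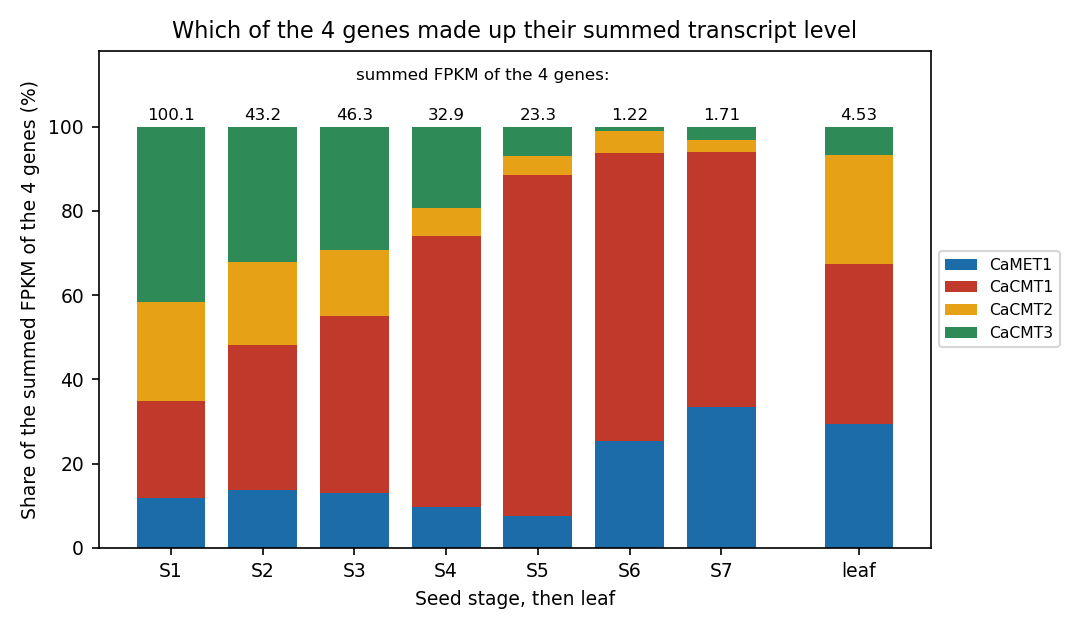
Share of each gene in the summed FPKM of the 4 genes (%), for seed stages S1 to S7 and leaf, with the sum in FPKM above each bar. CaCMT3 is the largest part at S1 (41.6%) and CaCMT1 at S5 (81.0%); the sum is 100.1 FPKM at S1 and 1.22 at S6.

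Seeds were compared with leaf, an organ outside the seed. At S1, S2 and S3 all 4 genes were at least 2-fold higher in seeds than in leaf, as were 27.4%, 25.8% and 26.1% of all entries at these stages. CaCMT3 stood out most, with 41.6 FPKM at S1 against 0.308 in leaf, a difference of 5.03 that exceeded that of 98.6% of all entries. CaCMT2 had 23.4 FPKM at S1 against 1.17 in leaf (3.49), CaCMT1 23.2 against 1.72 (3.15) and CaMET1 11.8 against 1.34 (2.45).

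At S4 only CaCMT1 and CaCMT3 were past the limit (2 of 4, against 27.9% of all entries), with differences of 3.02 and 2.49. CaMET1 was at 0.85, and passed the limit when libraries were scaled to the same sum (1.22) or upper quartile (1.14). At S5 CaCMT1 was still 11.0-fold higher than in leaf (2.87), whereas CaCMT3 was just past the limit (1.01, and 0.98 with the median ratio). Of all entries 28.1% were higher at S5 than in leaf. CaMET1 and CaCMT2 differed from leaf by 0.24 and -0.10.

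At S6 and S7 all 4 genes had lower values in seeds than in leaf. With the deposited scaling CaCMT2 alone passed the limit, with 0.0653 FPKM at S6 and 0.0484 at S7 against 1.17 in leaf (-1.02 and -1.05), as did 31.7% of all entries at S6 and 31.7% at S7. Both values were close to the limit. CaCMT2 no longer passed it at S6 with the same upper quartile (-0.99). Nor did it pass at either stage with a pseudocount of 5 (-0.28 and -0.29), a minimum of 5 FPKM or a 4-fold limit. With 1.17 FPKM in leaf, CaCMT2 could not have passed under these last settings however low it was in seeds, so they do not check the difference. CaMET1 differed from leaf by -0.84 at S6 and -0.57 at S7, and passed the limit at S6 with the same sum (-1.02) and at both stages with a pseudocount of 0.1 (-1.81 and -1.10), while CaCMT1 differed by -0.57 and -0.42. CaCMT3 was under 1 FPKM at both stages and in leaf.

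**Figure D5:**
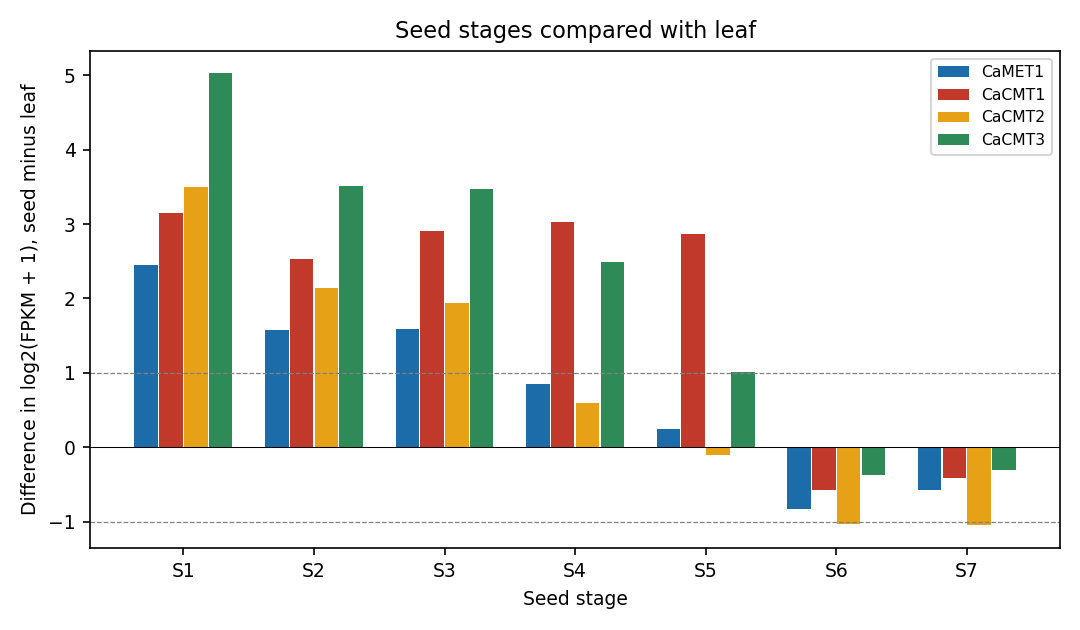
Difference in log2(FPKM + 1), seed minus leaf, for the 4 genes at stages S1 to S7. Bars above 0 mean a higher level in seeds; dashed lines mark the 2-fold limit, which all 4 genes pass from S1 to S3 and CaCMT1 still at S5 (2.87), while CaCMT2 lies just beyond it in the other direction at S6 (-1.02; -0.99 with the same upper quartile) and S7 (-1.05).

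MET1 and CMT3 act on newly replicated DNA in other plants. The study listed CaMET1, CaCMT2 and CaCMT3, but not CaCMT1, among cell cycle genes with a differentially methylated region in any transition. The other 168 genes of that list were therefore followed beside CaMET1 and the chromomethylase genes. Whether CaCMT1 is absent for its function or for lack of such a region was not tested. The list holds genes that the study linked to methylation in these seeds, and it is a description and not independent evidence. In S2 against S1, 32 of 135 tested cell cycle genes fell (23.7%, beside 5.79% of all entries) and 5 rose (3.70%, beside 8.57%). Their median was -0.30, against -0.02 for all entries. In S6 against S5, 44 of 120 fell (36.7%, beside 30.3% of all entries) and 16 rose (13.3%, beside 26.1%), with a median of -0.54 against -0.04. In S3 against S2, 3 of 131 fell (2.29%, beside 7.13% of all entries) and 3 rose (2.29%, beside 4.47%). In S4 against S3, 10 of 132 fell (7.58%, beside 6.87% of all entries) and 7 rose (5.30%, beside 8.81%). In S5 against S4, 16 of 128 fell (12.5%, beside 10.5%) and 8 rose (6.25%, beside 8.71%). In S7 against S6, 1 of 94 fell (1.06%, beside 3.58%) and 1 rose (1.06%, beside 1.53%).

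The differences of CaMET1, CaCMT2 and CaCMT3 lay below the middle of that list at each single step from S1 to S6. How far below varied with the step and the gene. In S2 against S1, 5.19% of the tested cell cycle genes had a lower difference than CaCMT3, 9.63% a lower one than CaCMT2 and 25.9% a lower one than CaMET1. In S3 against S2 these shares were 45.8%, 31.3% and 49.6%, and in S4 against S3 they were 7.58%, 3.03% and 14.4%. They were 3.13%, 25.8% and 26.6% in S5 against S4, and 25.8%, 40.0% and 35.0% in S6 against S5. For CaCMT1 the share was 62.1% in S4 against S3 and 2.50% in S6 against S5. The highest seed stage was S1 for 55 of the 143 cell cycle genes that reached 1 FPKM in seeds (38.5%), and for 16.1% of the 18740 entries that reached 1 FPKM in any seed library.

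Over the 8 groups the profiles of CaMET1, CaCMT2 and CaCMT3 were close to each other. Pearson's r of log2(FPKM + 1) was 0.987 between CaMET1 and CaCMT3, 0.987 between CaMET1 and CaCMT2 and 0.971 between CaCMT2 and CaCMT3. CaCMT1 correlated less, with 0.836 for CaMET1, 0.848 for CaCMT3 and 0.754 for CaCMT2. Over S1 to S5 alone these 3 values were 0.22, 0.24 and 0.16, against 0.982 to 0.995 among the other 3 genes. S6, S7 and leaf, which are left out of these, are low for all 4 genes. All of these values describe pooled libraries, of which 7 form a developmental series.

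Other genes with such profiles were not rare. An r of at least 0.95 was found with CaMET1 for 397 of 19163 entries (2.07%), with CaCMT2 for 298 (1.56%), with CaCMT3 for 475 (2.48%) and with CaCMT1 for 512 (2.67%). Among cell cycle genes the shares were 13.9%, 11.8%, 16.7% and 4.17% of 144 genes, in the same order. The share for CaCMT1 rests on 6 genes, and with a pseudocount of 5 it was below that of all entries. Among entries with a single identifier and at least 5 FPKM in any group, the 2 closest were Ca_09770 (r of 0.998) and Ca_20173 (0.997), both with CaCMT3. Ca_09770 had 7.40 FPKM at S1, 0.787 at S5 and was listed at 0 at S6 and S7, with 0.0645 FPKM in leaf. Ca_20173 had 12.7 FPKM at S1 and 0.683 at S5, then 0.0901 at S7, with 0.155 FPKM in leaf.

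Of the 8 other methylation genes of the study, 2 demethylase genes stood on several entries, and the entry with the higher mean was used. On these, 0 of the 7 tested fell in S7 against S1 and 1 rose, the demethylase gene Ca_17326 (4.11 FPKM at S7 against 0.584 at S1). With the entries of a gene summed Ca_20137 rose too, and a second gene was thus past the limit. Its further entry had 33.9 FPKM at S7 against 1.99 at S1, whereas the entry used had 12.0 FPKM at S7 against 14.3 at S1. CaDRM2 (Ca_03062), a methyltransferase of the small RNA pathway, had 24.0 FPKM at S1, 19.6 at S4, 21.5 at S6 and 25.3 at S7, beside 6.53 FPKM in leaf. CaDRM1 (Ca_12577) had 14.4 FPKM at S1, 18.7 at S4, 11.2 at S6 and 13.5 at S7, beside 7.91 FPKM in leaf. In S6 against S5, where CaCMT1 dropped, 2 of these 8 genes fell and 0 rose. These were the demethylase genes Ca_17547, with 18.9 FPKM at S6 against 49.0 at S5, and Ca_07031, which was listed at 0 at S6 against 1.41 FPKM at S5. With summed entries 1 gene rose in this step, Ca_20137, whose further entry had 32.0 FPKM at S6 and was listed at 0 at S5.

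At S1 the summed level of the 4 genes was 100.1 FPKM, beside 24.0 FPKM of CaDRM2 and 14.4 FPKM of CaDRM1. At S7 it was 1.71 FPKM, beside 25.3 FPKM of CaDRM2 and 13.5 FPKM of CaDRM1. These levels are per exon length within 1 library each.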

How the data were processed

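The authors, per the labels, cleaned the reads (NGS QC Toolkit), aligned them with TopHat to the kabuli assembly of chickpea and its gene models, and estimated FPKM in Cufflinks. The authors deposited 1 FPKM column for each of the 8 groups, which pools 3 samples (24 samples in all), and how they were pooled or scaled is not given in the sources used here. Groups were taken from the sample titles. Because no replicate columns were held, limma was not run, and no interval could be had without read depth.

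Entries with a gene identifier (27966) entered 14 comparisons of log2(FPKM + 1), each among those reaching 1 FPKM in either group and with a limit of 2-fold. For CaCMT1, and for the 2 other methylation genes and 7 cell cycle genes on several entries, the entry with the higher mean was used. The 7268 entries without an identifier were left out. Of the identifiers 0 matched a RefSeq gene, so sequences and positions were not used here. Genes named were the 4 members, the 8 other methylation genes and the 2 entries with the highest r to a member (single identifier, at least 5 FPKM). The members, lists and rules were chosen with earlier results of these data known. Alternatives were pseudocounts of 0.1 and 5, no minimum or 5 FPKM, a 4-fold limit, summed entries and 3 scalings, which equalised the sum, the upper quartile (of entries reaching 1 FPKM) or the median ratio of each library to the geometric mean. The calculation was tested on simulated data with changes planted in well-expressed entries only, so recovery of changes at low values was not tested. Python 3.11.15, pandas 2.3.3 and numpy 2.4.6 were used.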

Additional observations from a re-analysis of the deposited data

How the results depend on the processing

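No paired analysis was possible because each group had 1 pooled column, and for the same reason no replicate could be left out. No direction of a called change was turned by any alternative. The stage of the highest value stayed S1 for all 4 genes under the 3 scalings and with summed entries, but was S4 when the lower CaCMT1 entry was used, an alternative added after the values were seen. The number of genes lower in S4 against S3 (1) was 2 with a pseudocount of 0.1, the same sum or the median ratio, and 0 with a pseudocount of 5 or a 4-fold limit. In S5 against S4 (1) it was 2 with a pseudocount of 0.1 or the same sum and 0 with a pseudocount of 5 or a 4-fold limit. In S6 against S5 (3) it was 1 with a pseudocount of 5, a minimum of 5 FPKM or a 4-fold limit. The other 3 genes were too low at S5 to pass under these settings. In the same step the number was 4 with a pseudocount of 0.1 or the same upper quartile. In S2 against S1 (2) it was 0 with a 4-fold limit. The number higher than in leaf at S3 (4) was 2 with a pseudocount of 5 or a 4-fold limit. At S5 (2) it was 1 with a pseudocount of 5, a minimum of 5 FPKM, a 4-fold limit, the median ratio or the lower CaCMT1 entry. The number lower than leaf (1 at S6, 1 at S7) was 2 at both stages with a pseudocount of 0.1 and 0 at both with a pseudocount of 5, a minimum of 5 FPKM or a 4-fold limit, and at S6 it was 0 with the same upper quartile, whereas equal sums gave 2. The other counts of the 4 genes past the limit stayed within 1.5 times. The same sum moved the median of all entries to -0.77 in S6 against S5 and -1.18 in S7 against S1, and the same upper quartile to -0.56 and -0.62, so the falls of the 4 genes are relative to a median that the scaling sets.

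The number of entries with an r of at least 0.95 was 1039 for CaMET1, 1157 for CaCMT1, 635 for CaCMT2 and 922 for CaCMT3 with the same sum, 630 for CaMET1 and 851 for CaCMT1 with the same upper quartile, and 850 for CaMET1, 1408 for CaCMT1, 653 for CaCMT2 and 848 for CaCMT3 over the seed stages only. These numbers therefore depend on the scaling and on leaf. The share of cell cycle genes for CaCMT1 was 0.694% with a pseudocount of 5, beside 1.86% of all entries. Over the seed stages only it was 7.64%, beside 7.35%. For CaCMT2 the share was 6.25% with a pseudocount of 0.1, beside 1.73%. For CaMET1, CaCMT2 and CaCMT3 the share stayed above that of all entries under each alternative. Of the single changes, 512 of 560 kept their side of the limit, but part of this was fixed in advance. Values under 1 FPKM in both groups cannot differ 2-fold on this scale, so dropping the minimum could move no call. Some lost calls were fixed as well. With at most 1.77 FPKM in both groups, no gene can pass with a pseudocount of 5, a minimum of 5 FPKM or a 4-fold limit. This covers CaMET1, CaCMT2 and CaCMT3 in S6 against S5, CaCMT3 at S5 against leaf, and every gene at S6 and S7 against leaf. Summed entries and the lower CaCMT1 entry could change CaCMT1 alone. Values under 1 FPKM, at S6 and S7 above all, have an unknown precision because the depth is unknown.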
